A study of Mus musculus with 8 samples.

Results

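Aquaporins are small membrane channels that let water, and in some members also glycerol and other small solutes, cross the cell membrane down their gradients. Genes of 8 of them (Aqp1, Aqp3, Aqp4, Aqp5, Aqp7, Aqp8, Aqp9 and Aqp11) were followed in endothelial cells sorted from mouse liver, out of 21161 genes with values. Each member is the gene whose 1 symbol in the deposited annotation is the listed name, and each had 1 probe set on the array. The set was chosen by measured values of these same arrays, the log2 differences between YFP+ and YFP- cells, to contrast endothelial, leukocyte and epithelial channels. Their differences in that comparison are therefore given as a description and no test is drawn from them.

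The samples came from bone-marrow chimeras. C57BL\6N mice, 8 weeks old, received 9 Gy of radiation as 2 doses of 4.5 Gy and then an intravenous transplant of 5000 YFP-labelled LSK cells, a marrow fraction rich in stem cells of the blood. Liver tissue was taken 1 month later, and cells without CD45 and with CD31 and CD146 on their surface were sorted and divided by YFP into YFP+ cells, which the labels call marrow-derived endothelium, and YFP- cells, which they call resident. Both groups come from irradiated and transplanted animals, so no group shows unirradiated liver, and YFP marks any progeny of the grafted cells. Each group has 4 arrays that the labels call biological replicates, made from 100 pg of total RNA each. Whether same-numbered sorts came from the same mouse is not stated, so p-values measure only the spread between these samples.

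In the classical view the family falls into water-selective channels (Aqp1, Aqp4, Aqp5 and Aqp8 among the members), aquaglyceroporins that also carry glycerol (Aqp3, Aqp7 and Aqp9) and a divergent branch of intracellular members (Aqp11). In liver, AQP1 is known from endothelium and bile duct epithelium, AQP8 and AQP9 from hepatocytes, and AQP9 also from white blood cells. Aquaglyceroporins and some others also pass hydrogen peroxide.

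Of the 8 members, 2 had a signal above the array's background, and these moved in opposite directions. Aqp9 was near the floor in YFP- cells and above background on every YFP+ array, though only narrowly on replicate 3 (542 against 525.3 units). Aqp1 was bright in both and slightly dimmer in YFP+ cells. The other 6 members stayed within background on every array. Background here means the 95th percentile of the array's negative control probe sets, which lay between 425 and 550 intensity units; a probe set at or below it on every array of a group is called dim. A dim probe set does not show that the transcript is absent. Values are the authors' normalized intensities, and log2 values are their logarithms; levels of different probe sets are not set against each other, since each has its own response. Of all genes, 75.9% were dim in both groups.

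**Figure D1:**
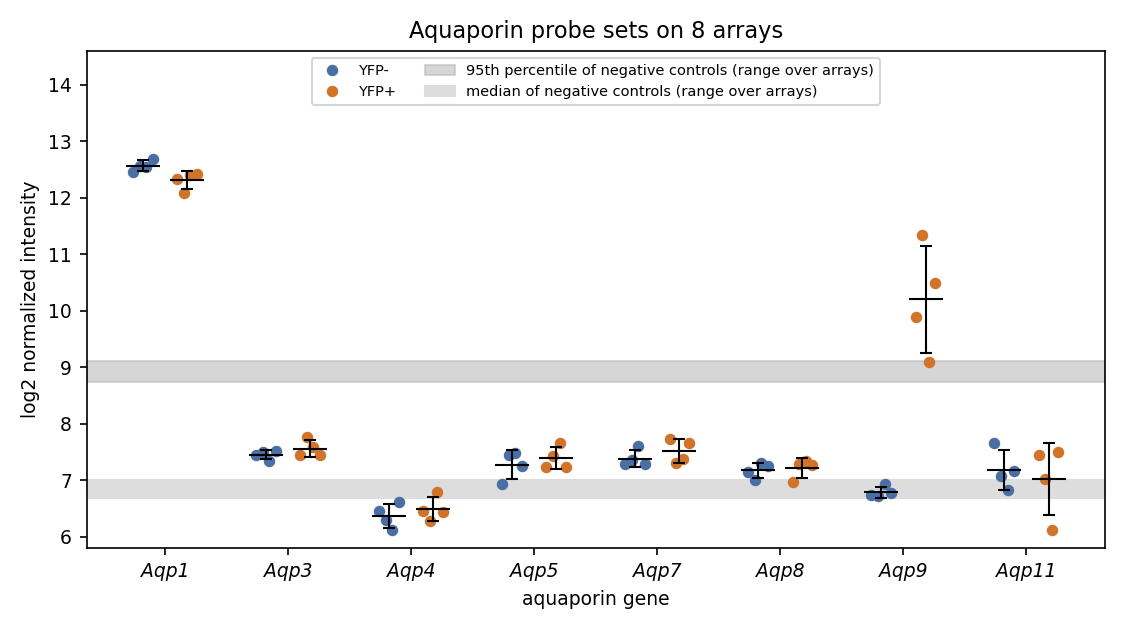
Log2 normalized intensity (vertical axis) of the 8 aquaporin genes (horizontal axis) on 4 YFP- (blue) and 4 YFP+ (orange) arrays, with each array as a point and bars for mean ± SD (n = 4). Grey bands give the range over arrays of the median and of the 95th percentile of the negative controls: Aqp1 lies above the upper band in both groups, Aqp9 in YFP+ cells, where its lowest array (9.08) is close to it, and the other 6 genes lie below it.

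Aqp9, on chromosome 9, encodes a channel for water, glycerol, urea and lactate. Its probe set read 107, 105, 122 and 109 intensity units on YFP- replicates 1 to 4, and 951, 2588, 542 and 1428 units on YFP+ replicates 1 to 4. The YFP- arrays lay close together below the median of their negative controls, whereas every YFP+ array lay above its 95th percentile and the 4 YFP+ values were spread widely. On the log2 scale the YFP- mean was 6.79 ± 0.10 and the YFP+ mean 10.20 ± 0.95 (SD, n = 4), which differ by 3.41 (SE 0.38). The measured ratio was 10.6-fold. Aqp9 was at least 2.2-fold higher in YFP+ cells when each YFP- array, being dim, is set at its background limit. Without YFP+ replicate 2, its brightest array, the difference was 3.03, and without YFP+ replicate 3, its dimmest, it was 3.78.

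Aqp1, on chromosome 6, encodes the water-selective channel of red cells, capillary endothelium and several water-moving epithelia. Its probe set read 5595, 6071, 5973 and 6580 units on YFP- replicates 1 to 4 and 5145, 4315, 5390 and 5504 units on YFP+ replicates 1 to 4. The groups did not overlap, but only a small gap parted the highest YFP+ from the lowest YFP- array, and YFP+ replicate 2 was the lowest of all 8. Mean log2 values were 12.56 ± 0.10 and 12.31 ± 0.16 (SD, n = 4), a difference of -0.25 (SE 0.12), or 1.19-fold lower in YFP+ cells. Differences lower than this were found in 13.8% of all genes. Without YFP+ replicate 2 the difference was -0.18.

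The windows before the annotated starts of these 2 genes are shown because they carry the members with a signal, and so that their composition can be compared. The sequences are RefSeq's, build GRCm38.p6, 5′ to 3′ on the gene's strand, and cover the 250 bases before the start. RefSeq windows were found for 7 of the 8 members. Capitals mark matches, on either strand, to 4 short motifs. The ETS core with its flanks was searched as AGGAAG. The GATA core with its flanks was searched as AGATAA. The paired C/EBP sites were searched as TTGCNNAA, where N is any base. The KLF core was searched as CACCC. The motifs do not share a position in these windows. Aqp1 has 1 annotated start, at chr6:55336049-55336298 for the window on the plus strand. Aqp9 has 2, at chr9:71163290-71163539 and chr9:71162634-71162883 on the minus strand.
Aqp1: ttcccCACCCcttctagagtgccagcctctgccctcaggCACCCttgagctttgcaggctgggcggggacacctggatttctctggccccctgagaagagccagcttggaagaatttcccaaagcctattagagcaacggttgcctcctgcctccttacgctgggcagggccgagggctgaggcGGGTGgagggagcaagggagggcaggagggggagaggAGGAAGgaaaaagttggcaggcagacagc
Aqp9 start 1: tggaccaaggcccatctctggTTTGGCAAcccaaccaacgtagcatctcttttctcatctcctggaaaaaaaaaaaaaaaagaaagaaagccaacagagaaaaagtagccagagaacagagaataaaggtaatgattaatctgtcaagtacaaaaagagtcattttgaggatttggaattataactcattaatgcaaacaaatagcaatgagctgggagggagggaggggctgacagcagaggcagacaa
Aqp9 start 2: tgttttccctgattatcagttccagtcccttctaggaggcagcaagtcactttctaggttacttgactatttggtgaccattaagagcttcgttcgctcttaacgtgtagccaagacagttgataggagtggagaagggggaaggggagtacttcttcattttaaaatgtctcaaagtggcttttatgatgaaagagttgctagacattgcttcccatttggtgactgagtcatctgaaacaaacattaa

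The Aqp1 window had 62.0% G and C, against 40.4% and 41.6% in the Aqp9 windows. It held 1 match to the ETS motif, which 29.5% of all 32851 RefSeq windows of this length hold, and 3 to the KLF motif, which 52% hold. The first Aqp9 window held 1 C/EBP match, a motif found in 9.56% of windows, and the second held none of the 4. The GATA motif, present in 9.99% of windows, was in none of the 3. These are letter matches and describe the windows only.

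Among the aquaglyceroporins other than Aqp9, Aqp3, a channel of the basolateral membrane of epithelia, ranged from 162 to 183 units on the YFP- and from 173 to 216 units on the YFP+ arrays. Aqp7, the glycerol channel of fat cells and of the capillaries around them, ranged from 156 to 194 and from 157 to 213 units. Of 5 fat cell markers, all were dim in both groups, with summed intensities of 521 to 563 and 534 to 651 units. Aqp3 and Aqp7 overlapped between the groups, with log2 differences of 0.11 (SE 0.12) and 0.13 (SE 0.14). The genes are next to each other on chromosome 4 among protein-coding genes in the RefSeq table.

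Of the water-selective members, Aqp4, the channel of astrocyte endfeet, read 69.3 to 97.5 units on YFP- and 77.3 to 111 units on YFP+ arrays. It exceeded the median of the negative controls on 1 YFP+ array and on no other. Aqp5, of salivary glands and lung, read 122 to 178 units on YFP- and 151 to 201 units on YFP+ arrays, and Aqp8, of hepatocytes and other epithelia, 129 to 158 and 124 to 162 units. All overlapped between the groups. Their log2 differences were 0.12 for Aqp4 (SE 0.15), 0.11 for Aqp5 (SE 0.16) and 0.04 for Aqp8 (SE 0.13).

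Aqp11, a channel of intracellular membranes, varied most among the dim members. Its values were 203, 134, 113 and 143 units on YFP- replicates 1 to 4 and 174, 130, 69.1 and 179 units on YFP+ replicates 1 to 4. The lowest reading was on YFP+ replicate 3, the array that also had the lowest median of the negative controls, 103.2 units against 109.3 to 113.0 on the other YFP+ arrays, and the highest median of the background probe sets, 87.5 against 76.0 to 81.5 units on the other 7 arrays. The difference was -0.16 (SE 0.30), and its sign was not stable. Leaving out YFP+ replicate 3 gave 0.14 and leaving out YFP- replicate 1 gave 0.003. The difference was 0.02 with array weights and 0.29 without YFP+ replicates 2 and 3 together. After normexp background correction it was 0.18, in a setting where the median difference of all genes was 0.19. Over the 6 dim members the differences ran from -0.16 to 0.13, with 0 of 48 readings above the background limit. The median of the negative controls was lower on every YFP+ array (103.2 to 113.0 units) than on any YFP- array (119.5 to 127.7 units), and its part in these small differences was not tested.

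The remaining genes of the family on the array, Mip, Aqp2, Aqp6 and Aqp12, were dim in both groups as well, which makes 10 dim genes of 12. Their differences lay between -0.29 for Mip, the lens fibre channel, and 0.08 for Aqp6, and none passed the test across all genes (limma adjusted p = 0.529 for Mip and 0.900 for Aqp6). Aqp2, the kidney channel set by vasopressin, sits beside Aqp5 on chromosome 15, and Aqp5 beside Aqp6, among protein-coding genes. None of the 10 dim genes had groups that did not overlap.

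For scale, 340 of 21161 genes, 1.61%, passed the test across all genes in either direction (limma, Benjamini-Hochberg, adjusted p under 0.05), 1.27% higher and 0.336% lower in YFP+ cells. The balance depended on the dim genes: with these left out, 118 of 246 called genes were lower, against 71 of 340. Of the 8 members 1 passed, Aqp9, and nothing is read from this count because the comparison served to choose the members. Groups did not overlap in 2 of the 8, Aqp9 on the higher and Aqp1 on the lower side. That was so for 8.62% of all genes, 4.8% on the higher and 3.82% on the lower side. A positive difference of any size was found in 50.4% of all genes.

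The gene whose profile over the 8 arrays was nearest to that of Aqp9 was the leukocyte gene Cd53. Profiles were compared after subtracting each gene's mean over the 8 arrays, and the distance is the root mean square difference in log2 units; it is a description, and all profiles share the same libraries and the step between the groups. Cd53, which encodes a tetraspanin of leukocyte membranes, stood at 0.10. Cyp4f18, the leukotriene-degrading enzyme of mouse neutrophils, stood at 0.18 and Sytl3, a synaptotagmin-like vesicle protein, at 0.23. The adaptor gene Tyrobp of myeloid and natural killer cells followed at 0.27 and Padi2, a peptidylarginine deiminase, at 0.29.

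On YFP+ replicates 1 to 4 Cd53 read 9.46, 10.75, 8.51 and 9.77 log2 units, and Aqp9 9.89, 11.34, 9.08 and 10.48. Both were highest on replicate 2, then on 4, 1 and 3. Cyp4f18 (10.23, 11.52, 9.58 and 10.52), Sytl3 (10.12, 10.99, 8.66 and 10.34) and Tyrobp (9.43, 11.26, 8.64 and 10.04) had the same order of arrays, and Padi2 (9.98, 11.53, 8.97 and 9.82) had replicate 1 above replicate 4. All 5 were dim in YFP- cells. When only genes above the background limit on at least 4 arrays were kept, 1 of the 5 nearest genes, Cyp4f18, remained.

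**Figure D2:**
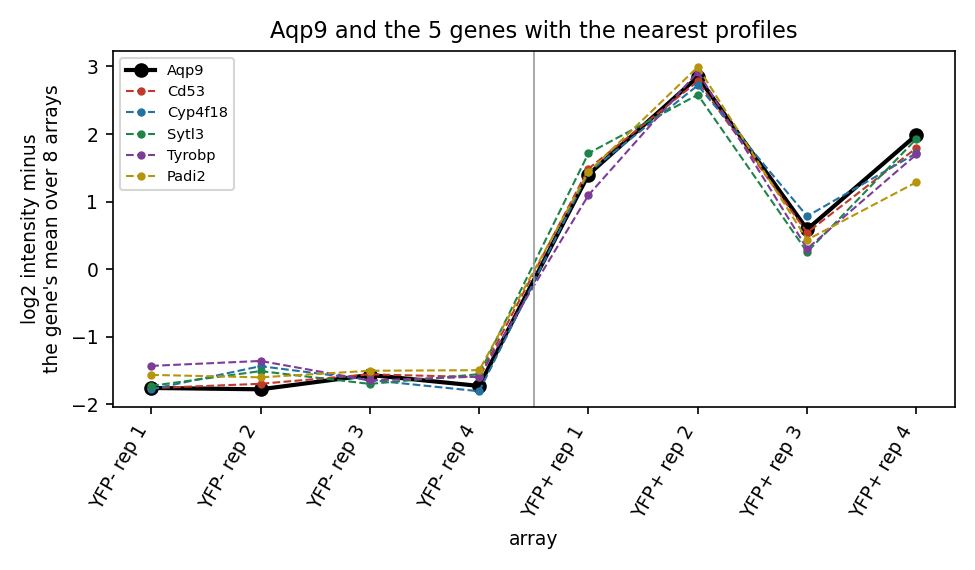
Log2 intensity minus each gene's own mean over 8 arrays (vertical axis) for Aqp9 (black) and its 5 nearest genes (colours) on each array (horizontal axis); lines only join the values of 1 gene. All 6 genes lie together on the YFP- arrays and rise to their highest value on YFP+ replicate 2 and their lowest YFP+ value on replicate 3.

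The labelled cell type was checked against marker genes. All 12 measured pan-endothelial genes were above background in both groups, Pecam1 (CD31) at 11.68 and 11.45 and Mcam (CD146) at 10.02 and 9.38 log2 in YFP- and YFP+ cells. Blood-cell markers were present in the YFP+ cells although CD45 had been sorted against: 10 of 12 pan-leukocyte genes were dim in YFP- and 1 of 12 in YFP+ cells, and their summed intensity ran from 2405 to 3482 units on YFP- and from 6268 to 19403 units on YFP+ arrays. Ptprc, the gene of CD45, read 7.41, 7.29, 6.79 and 7.64 log2 on YFP- replicates 1 to 4 and 9.06, 10.08, 7.22 and 8.82 on YFP+ replicates 1 to 4. YFP+ replicate 3 lay below its background limit of 9.04 and replicate 4 close to its limit of 8.80. The groups overlapped and Ptprc was not called (limma adjusted p = 0.181). In such bulk samples a change in the number of cells of a type and a change in RNA per cell cannot be told apart.

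Aqp9 followed the pan-leukocyte list in the order of YFP+ arrays. Cd53 and Tyrobp, given above among the genes nearest to Aqp9, are members of this list, so its order is not a separate observation. Of the 12 pan-leukocyte genes 6 were called higher, and all 12 differences were positive, with a median of 1.81. The list mean was 8.99, 10.17, 8.44 and 9.15 log2 on YFP+ replicates 1 to 4, highest on 2 and then on 4, 1 and 3 as for Aqp9. The mast cell and basophil list (9.28, 10.68, 8.15 and 8.90), in which 0 of 8 genes were dim in YFP+ cells, had replicate 1 above 4. All 8 of its differences were positive, with a median of 2.02, and 4 of its genes were called higher. Its summed intensity ran from 1470 to 1639 units on YFP- and from 3063 to 15233 units on YFP+ arrays. The hepatocyte list (8.04, 8.58, 7.78 and 8.40) shared the order of Aqp9 too, over a narrower range; its sum ran from 3856 to 5410 and from 6237 to 10998 units. Of the 9 megakaryocyte and platelet genes 3 were called higher, Ppbp, Pf4 and Gp6, and all 9 differences were positive, with a median of 0.41. Their list (8.69, 8.59, 8.61 and 8.39), with 4 of 9 genes dim in YFP+ cells and sums of 1885 to 1941 and 4347 to 5426 units, did not follow the order of Aqp9. Nor did the neutrophil list (7.258, 7.542, 7.219 and 7.097), the monocyte list (8.128, 8.461, 7.817 and 7.961) or the Kupffer cell list (7.798, 7.802, 7.32 and 7.462). These were highest on replicate 2 like Aqp9 but had replicate 1 above 4. The part of any of these cells in the Aqp9 signal was not tested.

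Lineages in which AQP9 is known had some markers called higher in YFP+ cells and others dim. Of 12 neutrophil genes 9 were dim in YFP+ cells, S100a8, S100a9, Ly6g and Ngp among them, and the summed intensity ran from 1210 to 1387 units on YFP- and from 2047 to 4058 units on YFP+ arrays. Cxcr2, a neutrophil chemokine receptor gene also found on other myeloid cells, was the 1 neutrophil gene called, with means of 6.88 in YFP- cells, where it was dim, and 9.16 log2 in YFP+ cells (limma adjusted p = 0.00524, at least 1.07-fold higher). Mpo, the granule peroxidase of early myeloid cells and neutrophils, read 9.20, 10.32, 7.23 and 6.98 log2 on YFP+ replicates 1 to 4 without passing the test (limma adjusted p = 0.247). Of 16 hepatocyte genes 11 were dim in YFP+ cells, Cps1, Apoa1, Fgb and Tat among them, but all 16 differences were positive and 3 genes were called higher, Alb, Ttr and Ambp. Alb, the albumin gene, read 10.72 in YFP- and 11.73 in YFP+ cells (limma adjusted p = 0.0200).

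Of 10 monocyte genes 5 were dim in YFP+ cells, 9 differences were positive and 4 genes were called higher, Lyz2, Plac8, Itgam and Ms4a6c; the summed intensity ran from 2008 to 2618 units on YFP- and from 4378 to 6860 units on YFP+ arrays. Plac8, which was above background in both groups, rose by 1.48 (limma adjusted p = 0.0134). Of 11 genes of Kupffer cells, the macrophages of the liver, 10 were dim in YFP+ cells, 10 differences were positive and 4 genes were called higher, Cd5l, C1qa, Fcna and Csf1r, with sums of 1272 to 1564 and 1893 to 2722 units. Cd5l, a secreted macrophage protein, had a difference of 1.53 (limma adjusted p = 0.00158) and was dim in both groups. The part of these lineages in the Aqp9 signal was likewise not tested.

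Aqp1 stood beside the endothelial markers. The pan-endothelial list mean lay between 10.98 and 11.07 log2 on the YFP- arrays. On YFP+ replicates 1 to 4 it lay at 10.75, 10.46, 10.85 and 10.66, and Aqp1 at 12.33, 12.08, 12.40 and 12.43. Both were lowest on replicate 2, but the order of the other YFP+ arrays differed. The medians of the differences were -0.29 over the 12 pan-endothelial genes and -0.23 over 9 sinusoidal genes, against -0.25 for Aqp1 and 0.002 over all genes. Of the pan-endothelial genes 1 passed the test, Tek, the angiopoietin receptor gene, lower by a difference of -0.73 (limma adjusted p = 0.0224). For red cells, where AQP1 is abundant, all 9 measured erythroid genes were dim in both groups, with sums of 1403 to 1472 units on YFP- and 1280 to 1702 units on YFP+ arrays, and the globin genes were not analysed here. The summed pan-endothelial intensity ran from 31476 to 33056 units on YFP- and from 23828 to 28277 units on YFP+ arrays.

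Bile duct epithelium, where AQP1 is also known, moved the other way. Of 11 bile duct genes 7 were called higher in YFP+ cells, Krt7, Krt8, Krt18, Krt19, Cdh1, Cldn7 and Spp1, and all 11 differences were positive, with a median of 1.28. Their summed intensity ran from 2895 to 4353 units on YFP- and from 7463 to 11067 units on YFP+ arrays. The Aqp1 difference had the opposite sign. The bile duct list mean was 9.458, 8.831, 8.945 and 9.305 log2 on YFP+ replicates 1 to 4. Among these arrays it too was lowest on replicate 2, so that this trait of Aqp1 was not particular to the endothelial lists. The part of either cell type in the Aqp1 difference was not tested.

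**Figure D3:**
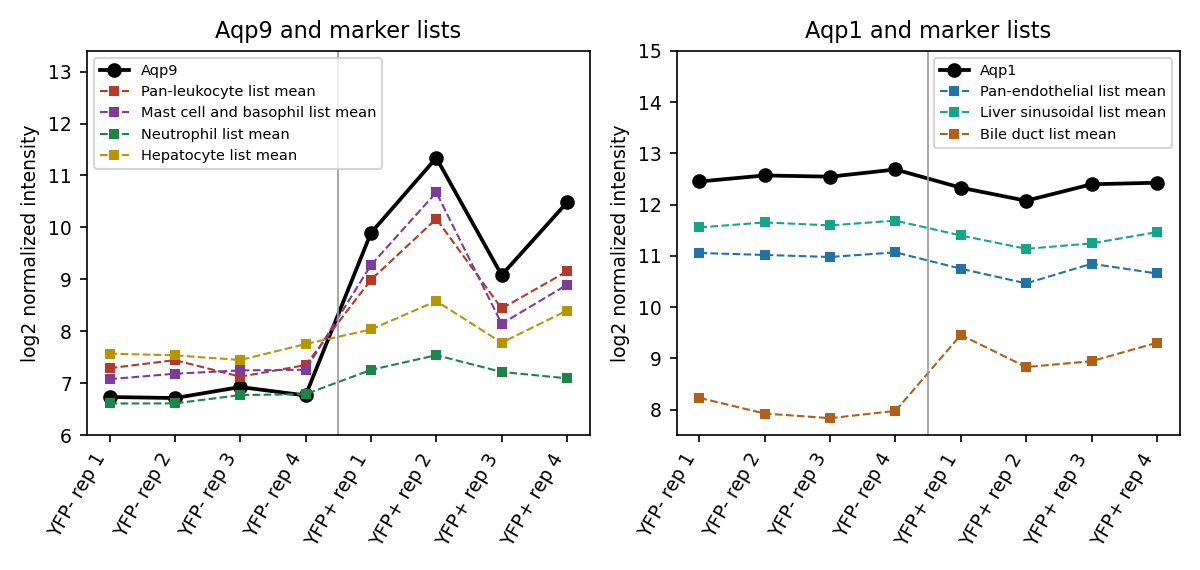
Log2 normalized intensity (vertical axes) of Aqp9 with the means of 4 marker lists (left) and of Aqp1 with the means of 3 marker lists (right) on each array (horizontal axes); lines only join the values of 1 gene or list. Aqp9 and the pan-leukocyte, mast cell and basophil, and hepatocyte means are highest on YFP+ replicate 2 and lowest among YFP+ arrays on replicate 3. The neutrophil mean is also highest on replicate 2 but lowest among YFP+ arrays on replicate 4. Aqp1 and the pan-endothelial and sinusoidal means are lowest on YFP+ replicate 2, where the bile duct mean is also at its lowest among YFP+ arrays.

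Genes whose products work alongside aquaporins were read from the same fit, in 7 lists with 74 measured genes in all, the 4 other family genes included. Of the 74 genes 4 were called higher and 0 lower in YFP+ cells, 5.41% against 1.61% of all genes, with a median difference of 0.13 against 0.002. Single arrays moved the count: leaving out YFP+ replicate 3 raised it to 13, while leaving out YFP- replicate 1, YFP- replicate 3 or YFP+ replicate 4 lowered it to 2, and YFP- replicate 2 or 4 to 1.

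Hydrogen peroxide production and removal had 2 of 16 genes called, a median difference of 0.44 and 14 positive differences. Of the 16 genes 8 were dim in YFP- and 5 in YFP+ cells. Rac2, the leukocyte GTPase that switches on the phagocyte NADPH oxidase, had log2 values of 6.87, 6.91, 6.79 and 6.74 on YFP- replicates 1 to 4 and 9.40, 10.90, 8.24 and 9.35 on YFP+ replicates 1 to 4. It was dim in YFP- cells, and the measured difference of 2.64 (SE 0.43, limma adjusted p = 0.0164) amounts to at least 1.33-fold higher in YFP+ cells against the background limit. Rac2 is also a member of the pan-leukocyte list. Without YFP- replicates 1, 2, 3 or 4 in turn it missed the threshold (limma adjusted p = 0.0559, 0.0588, 0.0582 and 0.0595). Gpx1, a glutathione peroxidase that breaks down peroxide, rose by 0.63 (SE 0.11, limma adjusted p = 0.0264), and its YFP- arrays (11.22 to 11.43 log2) all lay below its YFP+ arrays (11.82 to 12.12 log2). Its call ended without any 1 of the YFP- arrays (limma adjusted p = 0.0793, 0.0989, 0.0581 and 0.0941) and without YFP+ replicate 4 (0.0606), and with the replicate number as a block (0.0683).

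Among genes of oxidase subunits, Ncf4, Ncf1, Cybb and Cyba had positive differences that did not pass the test, 1.13, 0.96, 0.77 and 0.42 in that order (limma adjusted p = 0.123, 0.173, 0.147 and 0.185). Without YFP+ replicate 3, Ncf1, Ncf4, Cybb and the catalase gene Cat were called higher. Ncf4 and Cybb were dim in both groups, and Ncf1 was dim in YFP- cells with no bound on its ratio. Cyba was above background in both groups. Nox4, the oxidase of endothelial and other non-blood cells, was also dim in both groups, with a difference of -0.12.

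Of 11 measured genes of ductal ion and bicarbonate secretion, which sets the osmotic gradient that water channels of the bile duct follow, 1 was called. Atp1b1, the beta subunit gene of the sodium pump, had log2 values of 8.93, 8.61, 7.53 and 8.25 on YFP- replicates 1 to 4 and 10.22, 10.16, 9.55 and 10.25 on YFP+ replicates 1 to 4. It was dim in YFP- cells, with a measured difference of 1.71 (SE 0.28, limma adjusted p = 0.0170), or at least 1.98-fold higher in YFP+ cells. It missed the threshold without YFP- replicate 4, YFP+ replicate 1 or YFP+ replicate 4 (limma adjusted p = 0.0615, 0.0571 and 0.0555). All 11 differences were positive, with a median of 0.36, while 9 of these genes were dim in YFP- and 7 in YFP+ cells. Cftr, the chloride channel, was dim in both groups and had a difference of 0.75 (limma adjusted p = 0.130), and Sctr, the secretin receptor, one of 0.14. Cftr and the bicarbonate cotransporter gene Slc4a4 were called higher without YFP+ replicate 3, without YFP+ replicates 2 and 3 together, and with array weights; Ano1, a chloride channel gene, was called without both of those replicates.

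Of 8 genes that anchor aquaporins or sort them to a membrane, 1 was called. Ezr, which encodes ezrin, a linker of membrane proteins to actin, read 7.81 to 8.13 log2 on the YFP- and 8.61 to 9.06 on the YFP+ arrays, a measured difference of 0.88 (SE 0.14, limma adjusted p = 0.0138). It was dim in YFP- cells, and its YFP+ mean did not exceed the background limit there, so that no bound on the ratio can be given. Leaving out YFP- replicate 1 or 2 ended the call (limma adjusted p = 0.0559 and 0.0588). Slc9a3r1, the scaffold that ezrin binds, had a difference of 0.55 (limma adjusted p = 0.101) and was called higher without YFP+ replicate 3 and with array weights. Dmd and Dag1, genes of the dystrophin complex that holds AQP4 at membranes, were not called, with differences of -0.11 and -0.04 (limma adjusted p = 0.804 and 0.955). The bile duct list mean lay at 7.83 to 8.23 log2 on YFP- and at 8.83 to 9.46 log2 on YFP+ arrays, and its part in the Ezr and Atp1b1 differences was not tested.

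No gene was called in the lists of glycerol and fat handling (14 measured), lactate and urea handling (9 measured) and cell volume regulation (12 measured). In the first, the genes with the smallest p were Dgat1, an enzyme of triglyceride synthesis, with a difference of 0.86 (limma adjusted p = 0.142), and Mgll, the monoglyceride lipase, with -0.47 (limma adjusted p = 0.18). Gk, the glycerol kinase that traps glycerol taken up by aquaglyceroporins, was dim in both groups, at 6.38 ± 0.22 and 6.71 ± 0.36 log2 (SD, n = 4), with a difference of 0.33. The capillary fat-uptake genes Gpihbp1, Cd36 and Fabp4 were bright in both groups, with differences of -0.21, -0.15 and -0.26.

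For lactate and urea, all 9 differences were positive, with a median of 0.25. All 9 genes were dim in YFP- cells and 8 of them in YFP+ cells, so that most of these differences lay within background. The lactate exporter gene Slc16a3 had a difference of 0.63 (limma adjusted p = 0.166) and was called higher without YFP+ replicate 3, and the urea transporter gene Slc14a1 one of 0.70 (limma adjusted p = 0.378). Both were dim in both groups. Of the volume regulators Lrrc8a, the essential subunit of the volume-regulated anion channel, had a difference of -0.29 and groups that did not overlap (limma adjusted p = 0.251), and Piezo1, a stretch-gated channel, one of -0.27 (limma adjusted p = 0.361).

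**Figure D4:**
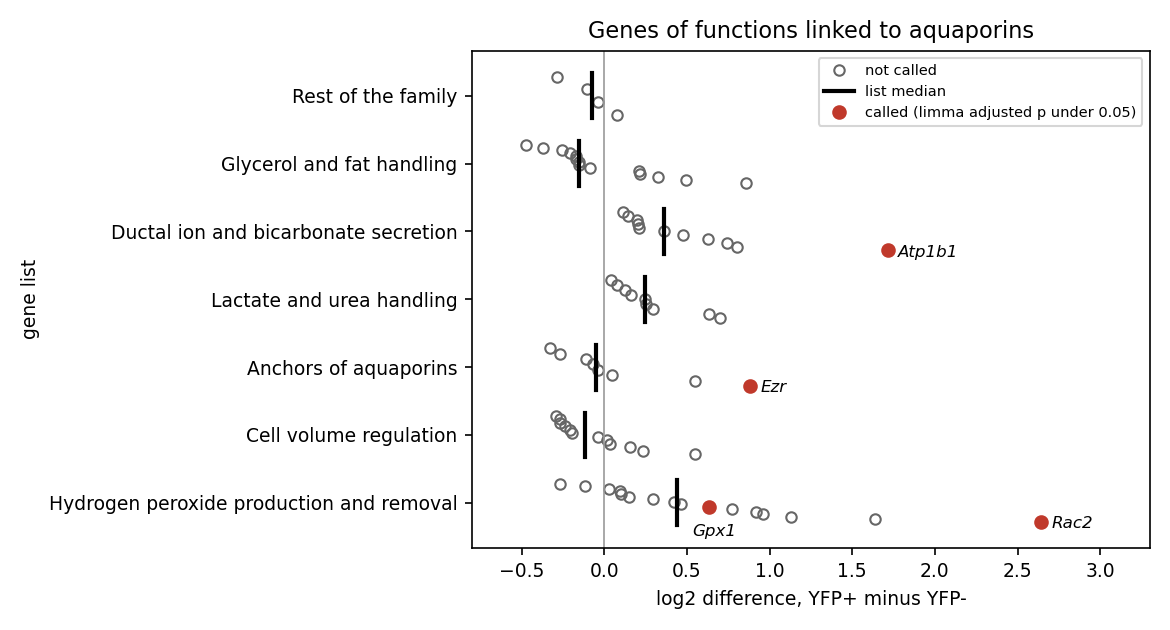
Log2 difference, YFP+ minus YFP- (horizontal axis), of 74 genes in 7 lists of functions linked to aquaporins (vertical axis), with open points for genes that did not pass the test, filled points for the 4 that did (limma adjusted p under 0.05) and a black bar for each list's median. The called genes all lie to the right of 0, with 3 of the 4 (Rac2, Atp1b1 and Ezr) dim in YFP- cells, and the median lies lowest for glycerol and fat handling (-0.15) and highest for peroxide genes (0.44).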

How the data were processed

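RNA of 8 sorted samples, 4 YFP+ and 4 YFP-, was labelled with the 3' IVT Pico kit and measured on Affymetrix arrays, per the labels' protocols. The deposited tables hold linear intensity units that the authors had already normalized, with nearly equal medians on all arrays. How they were summarized, normalized and background-corrected, on which array model and build, is not given in the sources used here. A larger deposited table adds the authors' group means, their fold (a ratio of means) and an unadjusted p-value, per the file headers; these were not used. Sample values came from the table whose columns name the samples, identical for all 8 arrays to the other.

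Of 22206 probe sets of genes, 3 with a missing value were left out. Those with 1 symbol (21371) were kept and the brightest per gene was taken, giving 21161 genes. Symbols were updated through Entrez numbers with a RefSeq table of GRCm38.p6 (20402 matched, 899 updated). The fit across all genes used log2 values, R 4.3.3 and limma 3.58.1, with lmFit, eBayes, two-sided p and Benjamini-Hochberg adjustment, without the replicate number as a block. SDs are over arrays and SEs are limma's. Tables and plots were made with Python 3.11.15, numpy 2.4.6, pandas 2.3.3 and matplotlib 3.10.9. The fit was tested on data simulated for this comparison (21161 genes, 50 changed of each size). It recovered 14%, 56%, 98% and 100% at log2 differences of 0.5, 1, 2 and 3, and 9 of its 143 calls were false. Each simulated gene had the same spread in both groups. The rates therefore do not carry over to genes of unequal spread such as Aqp9 (SD 0.10 in YFP- and 0.95 in YFP+ cells). The number of arrays limits the precision.

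Members, lists, alternatives and named genes were chosen with earlier results of these data known. All members were named, from each list the called genes (up to 4) or else the 2 with the smallest p, and for each member spanning at least 2 log2 units (Aqp9) the 5 nearest genes; other list members and marker genes were named after their values were seen. Alternatives were the replicate block, quantile and cyclic loess normalization, normexp background correction, leaving out dim genes, other probe set rules, trended and robust eBayes, array weights and leaving out arrays.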

Additional observations from a re-analysis of the deposited data

How the results depend on the processing

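The Aqp9 difference was 1.63 after normexp background correction and 3.03 to 3.78 when each array in turn was left out. The Aqp1 difference ran from -0.30 to -0.18 over the same omissions. Both kept their sign under every alternative. Normexp correction from the negative controls put 19272 genes, 7 of the 8 members and 65 of the 74 genes of linked functions past the threshold and moved the median of all genes by 0.19. The cause was not tested. Without single arrays the count of called genes ran from 115 to 636, and that of the 74 genes from 1 to 13. It was 695 and 11 with array weights, and 586 and 9 without YFP+ replicates 2 and 3 together. Lower genes numbered 71, 8 to 134 without single arrays, and 118 of 246 called genes with dim genes left out. Of the 5 genes nearest to Aqp9, 1 was shared after normexp and 1 with dim genes left out, and 3 to 5 without single arrays.

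The replicate numbers were not taken to pair the samples, because no source used here states that they do. Column headers give both groups the same set of numbers without saying what these mark. Deviations from group means correlated at 0.159, 0.019, 0.1 and 0.078 for same-numbered arrays. Every array but YFP+ replicate 2 correlated best with its own number, and these correlations do not settle whether the samples are paired. With the replicate block 241 genes were called against 340, 37 of them lower, and 1 member (Aqp9) as before; Gpx1 missed the threshold (limma adjusted p = 0.0683).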
